A study of Danio rerio with 24 samples.

Results

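The genes described here build and position the junctions between epithelial cells, and were read in RNA of retinal pigment epithelium (RPE) cells sorted from zebrafish larvae. Members were chosen by name, as every gene of the deposited tables whose symbol begins with *cldn*, *cdh* and a digit, *tjp*, *ocln*, *f11r*, *jam2* or *jam3*, *pard3* or *pard6*, *crb1* to *crb3*, *pals1*, *mpp5*, *cgn* or *marveld*. This rule, which uses no measured value, found 97 of 25281 genes. Of these, 54 are tight junction genes, among them 34 claudins, 27 are cadherins and 16 are polarity genes of the Par and Crumbs complexes.

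Tight junctions seal the space between epithelial cells, and claudins are the membrane proteins that set which ions and solutes can pass. Cadherins hold neighboring cells together at adherens junctions, while the Par and Crumbs complexes define the apical side of the cell and where its junctions form. In the eye, the junctions of the RPE form the outer blood-retinal barrier between the choroidal blood supply and the photoreceptors.

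All larvae carried the *rpe65a*:nfsB-eGFP transgene, in which the *rpe65a* promoter drives bacterial nitroreductase fused to eGFP in RPE cells, and all were raised in PTU, an inhibitor of melanin synthesis, until the day of ablation. MTZ+ larvae received 10 mM metronidazole (MTZ), which nitroreductase turns into a toxin that kills the RPE of the central eye, and MTZ- larvae received none. Larvae of both kinds were kept in 2 μM rapamycin, an mTOR inhibitor, or in its vehicle DMSO from the day before ablation until collection. The 8 groups of 3 libraries were therefore MTZ+ rapamycin, MTZ+ DMSO, MTZ- rapamycin and MTZ- DMSO larvae, each at 2 days post-injury (2dpi, 7 days post-fertilization, dpf) and at 4dpi (9dpf). The eyes of 40 larvae were pooled for each library, and at most 1000 living eGFP+ cells were sorted from them, so that in MTZ+ larvae the gate takes in spared peripheral RPE and any new eGFP+ cell alike. In such bulk samples, fewer cells of a type and less RNA per cell cannot be told apart.

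Between 20607731 and 37189527 reads per library were counted on genes, and MTZ+ DMSO libraries at 2dpi, with 22230490 to 23195175, were shallower than the MTZ- DMSO libraries, with 31730237 to 34199334. All 9 RPE markers (among them *rpe65a*, *dct* and *best1*) were detected in every group, as the tissue label has it. Their summed level was 15974 to 31565 CPM (counts relative to library size, scaled by TMM factors) in MTZ+ DMSO and 69063 to 86150 CPM in MTZ- DMSO at 2dpi, and 24809 to 45818 CPM against 68462 to 78172 CPM at 4dpi. The RPE sum was thus lower in MTZ+ DMSO beside every ablation difference given here, and its part in them was not tested. By the criteria given below, 9 of the 9 markers were called lower at 2dpi and 4 at 4dpi, beside 9.9% and 9.14% of all genes. One marker, *pmelb*, had a higher mean in MTZ+ DMSO at 4dpi (2418 CPM, against 1283 CPM in MTZ- DMSO).

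Levels can be compared between genes as TPM, which divides counts by gene length. Over all 24 libraries, 19 members averaged at least 10 TPM, a further 23 lay between 1 and 10 TPM and 55 were under 1 TPM. The most abundant member was *cldn2* (chromosome 21, 38002879 to 38009507, GRCz11), with a mean of 378 TPM. Claudin-2 of mammals forms a channel for cations and water. After it came *jam2a*, a junctional adhesion molecule of the immunoglobulin family (139 TPM, chromosome 1, 594584 to 608247), the type II cadherin *cdh6* (112 TPM, chromosome 2, 28049046 to 28102264), *cldn5a* (83.9 TPM), N-cadherin *cdh2* (72.1 TPM) and *jam3b* (61.3 TPM). The next were *pard6a*, an adaptor of the Par complex (40.6 TPM), the scaffold proteins *tjp2a* (ZO-2, 32.0 TPM) and *cgnl1* (paracingulin, 30.2 TPM), *cldn12* (29.1 TPM), E-cadherin *cdh1* (25.6 TPM) and *cldnk* (22.6 TPM), a claudin of myelinating glia in zebrafish that had counts in 15 libraries only.

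**Figure D1:**
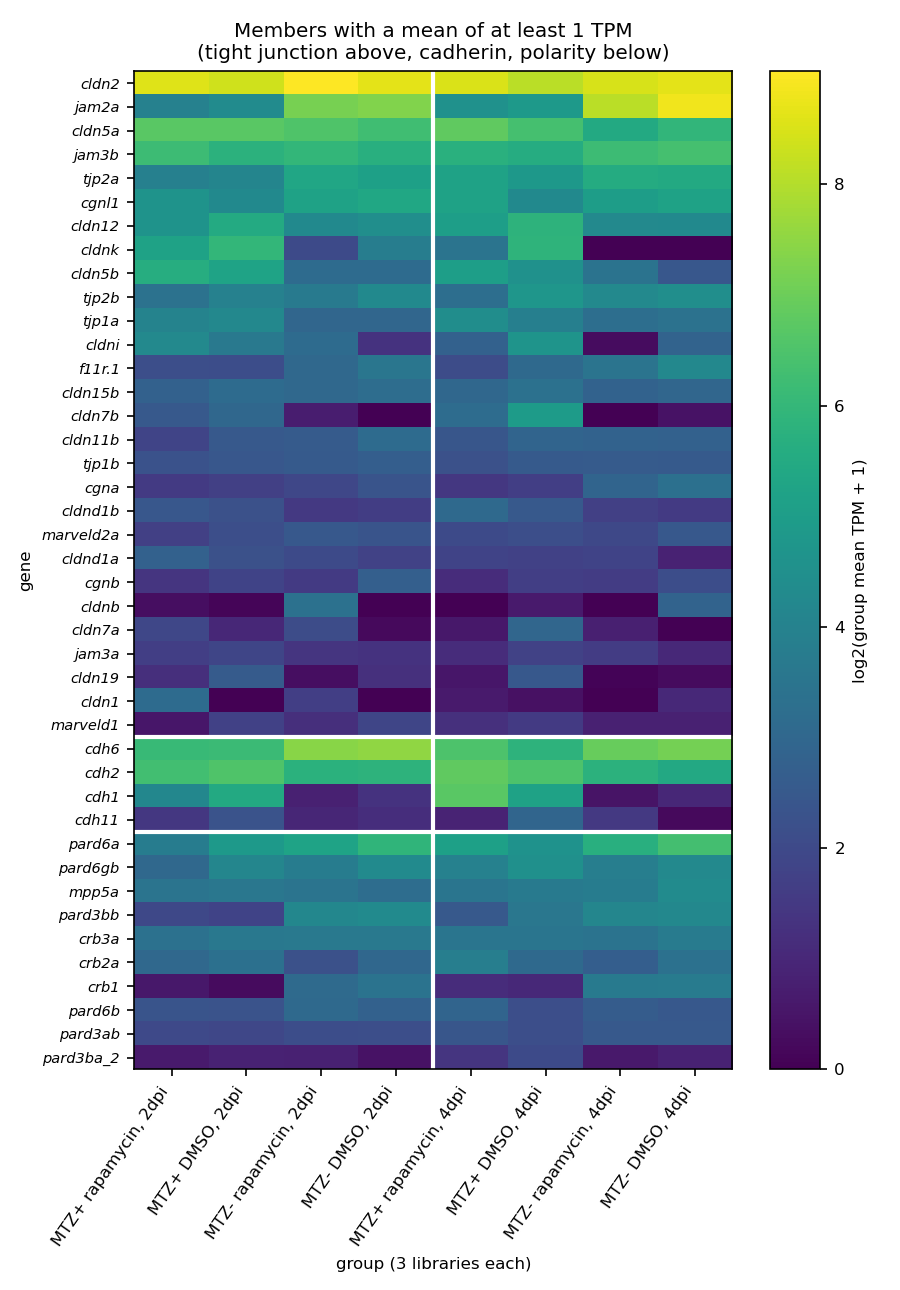
Heat map of the members with a mean of at least 1 TPM over all libraries (rows, by class) in the 8 groups (columns, 3 libraries each), with color for log2 of the group mean TPM plus 1. *cldn2* is bright in all 8 groups, *jam2a*, *cdh6* and *crb1* are darker in the MTZ+ than in the MTZ- columns, and *cdh1* and *cldn7b* are brighter there.

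Few members per class carried most of the message. At 2dpi, *cldn2* supplied 38.6 to 46.7% of the summed tight junction TPM in MTZ+ DMSO libraries and 41.6 to 48.8% in MTZ- DMSO libraries. *cldn19*, the leading claudin of human RPE, averaged only 1.66 TPM and had no count in 6 libraries. The barrier claudin *cldn5a*, best known from brain endothelium, was measured at 36.8 to 132 CPM in every library. The sum of 8 endothelial markers was 2.69 to 10.5 CPM, and the part of endothelial cells in the *cldn5a* level was not tested. Occludin was scarce in both copies (*oclna* 0.285 TPM, *oclnb* 0.129 TPM), and of the other MARVEL-domain proteins of the tight junction, *marveld2a* (tricellulin) averaged 3.56 TPM.

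Among cadherins the leading gene differed between ablated and unablated RPE. In MTZ+ DMSO libraries, *cdh2* led with 41.1 to 47.3% of the cadherin TPM at 2dpi and 38.2 to 51.3% at 4dpi. In MTZ- DMSO libraries, *cdh6* made up 70.1 to 78.6% at 2dpi and 70.2 to 79.9% at 4dpi. The summed cadherin TPM itself was 187 to 233 in MTZ+ DMSO and 239 to 260 in MTZ- DMSO at 2dpi, and 162 to 230 against 143 to 224 at 4dpi, where the ranges overlapped. E-cadherin took 16.0 to 28.3% of the TPM of *cdh1*, *cdh2* and *cdh6* in MTZ+ DMSO at 2dpi and 17.1 to 23.9% at 4dpi, while in MTZ- DMSO it stayed at 0.432 to 0.871% and 0.137 to 1.38%. These shares are given as a description.

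To determine which junction genes changed after RPE ablation, MTZ+ DMSO was compared with MTZ- DMSO at each time point with the quasi-likelihood test of edgeR. A member was called when its p, adjusted by Benjamini-Hochberg over all tested genes, was under 0.05, its log2 fold change beyond 1 in either direction and its larger group mean at least 1 TPM. At 2dpi, 68 of the 97 members had enough reads to be tested, and 15 were called, 4 higher and 11 lower in MTZ+ DMSO. That is 22.1% of those tested, next to 21.2% of all 17536 genes tested. Of all genes, 11.3% were called higher and 9.9% lower. At 4dpi, 15 of 68 tested members were called, 8 higher and 7 lower, against 23.5% of all genes (14.3% higher, 9.14% lower). The share of members called was thus near the background at both time points. At 2dpi the libraries of 13 members did not overlap and were higher in MTZ+ DMSO and those of 16 were lower, where 21.9% and 21.8% of all genes did so. The corresponding counts at 4dpi were 16 and 14, against 25.8% and 21% of all genes.

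By class, 3 tight junction genes rose and 7 fell at 2dpi (of 41 tested), 1 cadherin rose and 1 fell (of 13), and 3 polarity genes fell with none rising (of 14). At 4dpi, 4 tight junction genes rose and 4 fell (of 40), 3 cadherins rose and 1 fell (of 14), and 1 polarity gene rose and 2 fell (of 14). The median log2 fold change at 2dpi was 0.36 for tight junction genes, 0.75 for cadherins and -0.31 for polarity genes, beside 0.04 over all tested genes. With members of an empty group set at their bound, the tight junction median was 0.45 and the other 2 class medians kept their values. At 4dpi the medians were 0.12, 1.65 and -0.70, beside 0.27 over all genes, and bounds left them as they were. The cadherin medians rest on scarce genes. At 2dpi it was the value of *cdh7b* (0.75 ± 1.74, largest group mean 0.0742 TPM). At 4dpi it lay between *cdh7a* (1.53 ± 1.29) and *cdh12a* (1.78 ± 1.82, 0.709 TPM), none of them called. These medians do not describe the abundant cadherins, of which *cdh6* fell and *cdh1* rose. Only 7 members were called at both time points, 8 at 2dpi alone and 8 at 4dpi alone. The difference of the ablation effect between the time points was tested directly and called no member by edgeR (0 of 77 tested over all libraries, with 15 at an unadjusted p under 0.05, as were 18.5% of all genes), 3 by DESeq2 and 1 when replicate number entered as a block (*jam3b*). Over all genes, edgeR called 2.63% in this test, and the share called by DESeq2 is not given here.

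**Figure D2:**
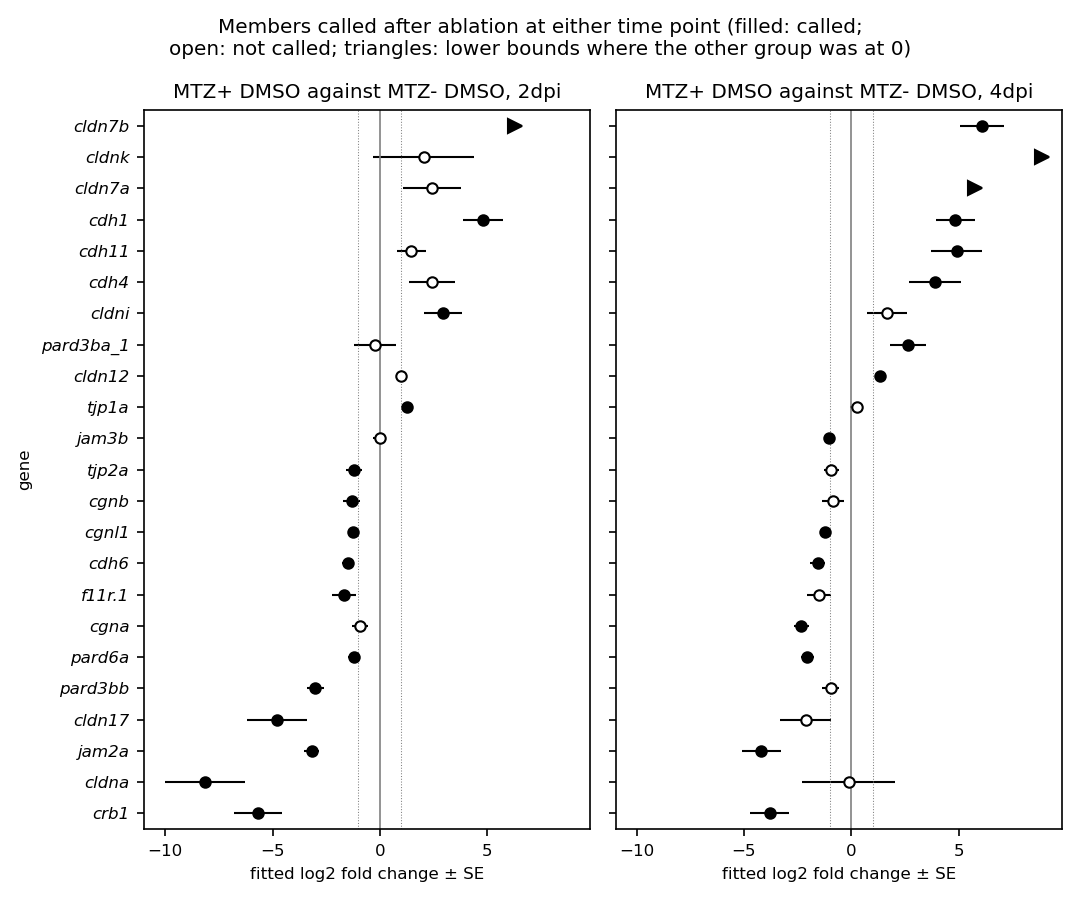
Fitted log2 fold change ± SE of MTZ+ DMSO over MTZ- DMSO at 2dpi (left) and 4dpi (right) for the 23 members called at either time point. Filled points were called and open ones not, and triangles mark lower bounds for members with no count in MTZ- DMSO. *jam2a*, *crb1*, *cdh6*, *cgnl1* and *pard6a* lie left of 0 and *cdh1* and *cldn7b* right of it in both panels.

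Among polarity genes, *crb1*, *pard3bb* and *pard6a* were called lower. Crumbs is the transmembrane protein that marks the apical membrane, and *crb1* had 0.970, 0.393 and 0.199 CPM in MTZ+ DMSO at 2dpi, against 20.1, 20.9 and 40.5 CPM in MTZ- DMSO. At 4dpi it had 3.89, 1.14 and 3.19 CPM in MTZ+ DMSO, against 29.8, 48.6 and 41.7 CPM in MTZ- DMSO. The groups were far apart at both times. The log2 fold changes were -5.67 ± 1.12 (SE, edgeR, adjusted p = 0.00336) at 2dpi and -3.81 ± 0.89 (adjusted p = 0.00873) at 4dpi.

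Par-3 and Par-6 assemble the complex that, with atypical protein kinase C, sets the border between apical and lateral membrane. *pard3bb*, a Par-3 relative, had 2.69, 5.60 and 5.14 CPM in MTZ+ DMSO at 2dpi, against 38.0, 42.6 and 28.3 CPM in MTZ- DMSO. All 3 ablated libraries lay below all unablated ones, and the log2 fold change was -3.00 ± 0.38 (edgeR, adjusted p = 0.000139). At 4dpi it had 17.9, 16.1 and 25.4 CPM in MTZ+ DMSO, against 45.3, 44.9 and 31.5 CPM in MTZ- DMSO. The groups still did not overlap, but the difference of -0.97 ± 0.40 was not called (edgeR, adjusted p = 0.0843).

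The libraries of 2dpi and 4dpi carry different dates in their names, and date and time cannot be told apart. Within MTZ+ DMSO larvae, *pard3bb* was the only member called between 4dpi and 2dpi, with a log2 fold change of 2.16 ± 0.40 (1 of 77 tested, edgeR, adjusted p = 0.0161), where 0.475% of all genes were called. This call was lost without any of 4 libraries (MTZ+ DMSO replicates 1 and 2 at 2dpi and replicates 1 and 3 at 4dpi), with adjusted p between 0.0551 and 0.0732, and when only the 2 compared groups were fitted (0.0765). The change of its ablation effect between time points was 1.98 ± 0.55 on the log2 scale and not called (edgeR, adjusted p = 0.0540), while DESeq2 called it (adjusted p = 0.00996).

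*pard6a* fell at both time points. It had 63.3, 50.6 and 51.5 CPM in MTZ+ DMSO at 2dpi, against 98.7, 112 and 178 CPM in MTZ- DMSO. At 4dpi the values were 44.2, 38.4 and 56.6 CPM in MTZ+ DMSO, against 216, 191 and 200 CPM in MTZ- DMSO. The unablated level was close between libraries at 4dpi and spread at 2dpi, and the log2 fold changes were -1.21 ± 0.27 (edgeR, adjusted p = 0.00568) at 2dpi and -2.06 ± 0.29 (adjusted p = 0.000844) at 4dpi. Without MTZ- DMSO replicate 3 at 2dpi the fold change was -0.93 and no longer beyond 1.

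Other polarity genes were not called lower. *crb2a*, a second Crumbs gene, changed by 0.24 ± 0.47 at 2dpi and -0.64 ± 0.44 at 4dpi, *crb3a* by -0.14 ± 0.30 and -0.54 ± 0.33, and none of these was called. *mpp5a*, which encodes the Pals1 scaffold that ties Crumbs to the junction, changed by -0.97 ± 0.31 at 4dpi with an adjusted p of 0.0348 in edgeR, just short of the fold limit. *pard3ba_1*, of 2 rows deposited for *pard3ba* the one with more reads, was the only polarity gene called higher, at 3.53, 2.22 and 3.73 CPM in MTZ+ DMSO against 0.703, 0.679 and 0.218 CPM in MTZ- DMSO at 4dpi. Its log2 fold change was 2.62 ± 0.85 (edgeR, adjusted p = 0.0368), and the call was lost without any 1 of the 6 libraries (adjusted p 0.0582 to 0.104), without the filter on low counts (0.0523) and without both MTZ+ libraries numbered 2 (0.0555). The other row, *pard3ba_2*, averaged more TPM over all libraries (1.08 against 0.746). It changed by 1.61 ± 1.67 at 4dpi and was not called (edgeR, adjusted p = 0.499). The summed TPM of all polarity genes was 85.7 to 90.8 in MTZ+ DMSO and 130 to 159 in MTZ- DMSO at 2dpi, and 79.4 to 134 against 173 to 189 at 4dpi.

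Junctional adhesion molecules sit at tight junctions and bind Par-3 in mammals. *jam2a* had 18.3, 8.31 and 10.9 CPM in MTZ+ DMSO at 2dpi, against 138, 82.5 and 120 CPM in MTZ- DMSO. At 4dpi it had 36.6, 8.04 and 13.9 CPM in MTZ+ DMSO, against 435, 413 and 276 CPM in MTZ- DMSO. The lowest unablated library was above the highest ablated one at both times. It fell by 3.17 ± 0.35 on the log2 scale at 2dpi (edgeR's quasi-likelihood test, adjusted p = 5.48e-05), the smallest adjusted p of any member in this comparison, and by 4.19 ± 0.90 at 4dpi (adjusted p = 0.00593), where DESeq2 gave -4.22 with no adjusted p. By its mean over MTZ- DMSO libraries at 4dpi, *jam2a* was above *cldn2* (449 and 400 TPM), but their ranges overlapped, at 335 to 510 TPM for *jam2a* and 336 to 465 TPM for *cldn2*.

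*jam3b* had 128, 110 and 121 CPM in MTZ+ DMSO at 4dpi, against 253, 297 and 219 CPM in MTZ- DMSO, and fell by 1.03 ± 0.17 (edgeR, adjusted p = 0.00175). This is just beyond the fold limit, and leaving out MTZ- DMSO replicate 2 or MTZ+ DMSO replicate 2 moved it to -0.91 or -0.98, and leaving out both MTZ+ libraries numbered 2 also moved it to -0.98. At 2dpi its groups overlapped, at 123, 101 and 186 CPM in MTZ+ DMSO against 149, 105 and 166 CPM in MTZ- DMSO. *f11r.1*, a copy of JAM-A, had 4.22, 0.851 and 4.39 CPM in MTZ+ DMSO at 2dpi, against 10.9, 11.4 and 8.41 CPM in MTZ- DMSO. It fell by 1.68 ± 0.56 (edgeR, adjusted p = 0.0420), a call kept in only 1 of 6 fits that left out a library, the one without MTZ+ DMSO replicate 3.

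Scaffold proteins link the membrane proteins of the junction to actin. *cgnl1* had 33.1, 50.7 and 56.3 CPM in MTZ+ DMSO at 2dpi, against 87.5, 116 and 134 CPM in MTZ- DMSO, and 42.0, 41.0 and 60.1 CPM against 123, 131 and 101 CPM at 4dpi. It fell by 1.25 ± 0.24 at 2dpi (edgeR's quasi-likelihood test, adjusted p = 0.00215) and by 1.24 ± 0.23 at 4dpi (adjusted p = 0.00294), without overlap at either time. Each of the 2 cingulin genes was called lower at 1 time point, and at the other its libraries were lower without overlap but not called. *cgnb* had 4.89, 8.74 and 3.79 CPM in MTZ+ DMSO at 2dpi, against 16.1, 13.9 and 14.0 CPM in MTZ- DMSO (log2 fold change -1.32 ± 0.40, adjusted p = 0.0286), a call that only the fit without MTZ+ DMSO replicate 2 kept among 6 fits short of a library. *cgna* had 13.8, 5.17 and 10.1 CPM in MTZ+ DMSO at 4dpi, against 63.3, 43.5 and 45.8 CPM in MTZ- DMSO (-2.33 ± 0.36, adjusted p = 0.00119), and overlaps a second gene on the same strand. At the time points without a call, *cgnb* averaged 5.46 CPM in MTZ+ DMSO and 10.4 CPM in MTZ- DMSO at 4dpi (-0.87 ± 0.51, edgeR, adjusted p = 0.225), and *cgna* 9.88 CPM in MTZ+ DMSO and 19.1 CPM in MTZ- DMSO at 2dpi (-0.93 ± 0.36, adjusted p = 0.0748).

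The ZO proteins did not move together. *tjp2a* had 36.0, 41.7 and 48.6 CPM in MTZ+ DMSO at 2dpi, against 76.3, 87.2 and 130 CPM in MTZ- DMSO, and fell by 1.19 ± 0.37 (edgeR, adjusted p = 0.0321). The call was lost without MTZ- DMSO replicate 3 or MTZ+ DMSO replicate 1 or 2 (adjusted p 0.0782 to 0.127). *tjp1a* (ZO-1) was instead higher, with 67.2, 79.0 and 83.4 CPM in MTZ+ DMSO at 2dpi, against 29.2, 34.2 and 34.7 CPM in MTZ- DMSO. It rose by 1.24 ± 0.20 on the log2 scale (edgeR, adjusted p = 0.000597). At 4dpi its groups overlapped, at 54.5, 78.0 and 50.9 CPM in MTZ+ DMSO against 54.8, 60.0 and 47.7 CPM in MTZ- DMSO. The second ZO-1 gene, *tjp1b*, had 17.8 to 22.9 CPM in MTZ+ DMSO at 2dpi and 26.0 to 29.2 CPM in MTZ- DMSO and was not called.

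**Figure D3:**
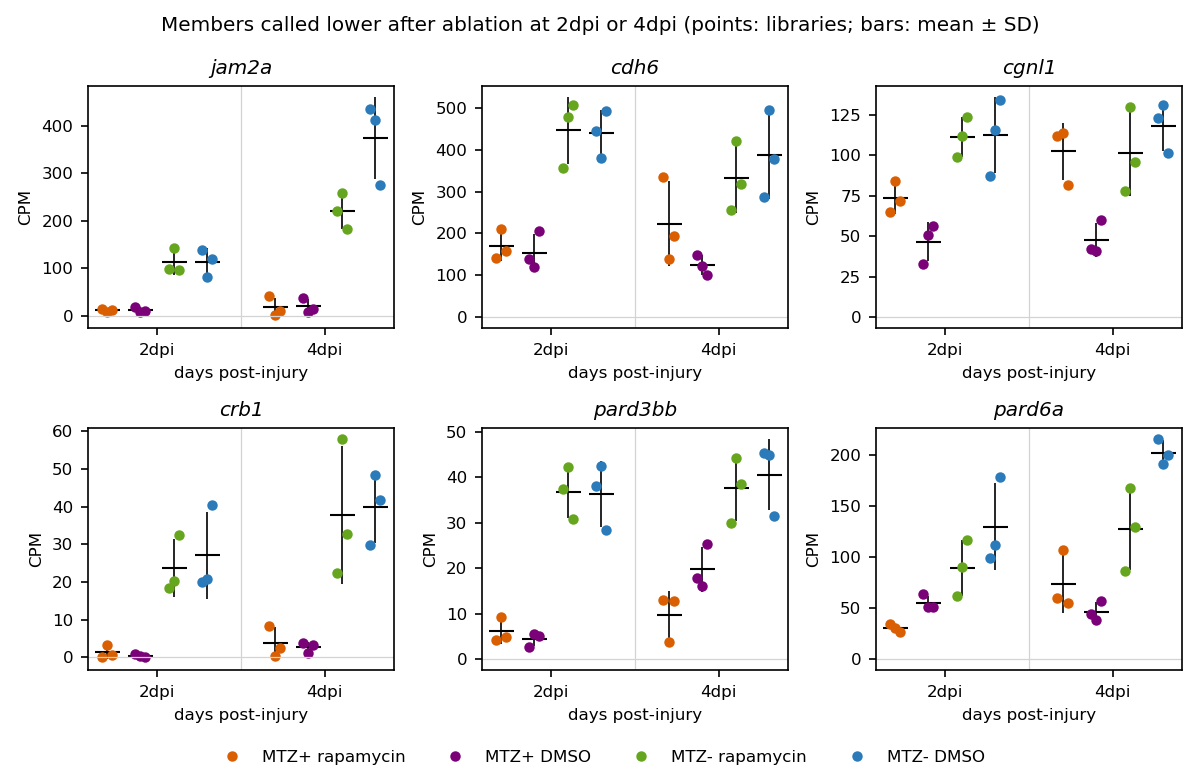
CPM of 6 members called lower after ablation at 2dpi or 4dpi, with a point for each library and a bar for the mean ± SD of the 3 libraries of a group, ordered MTZ+ rapamycin, MTZ+ DMSO, MTZ- rapamycin and MTZ- DMSO within each time point. The 3 MTZ+ DMSO libraries of *jam2a* at 4dpi lie between 8.04 and 36.6 CPM, below the 276 to 435 CPM of MTZ- DMSO, and *cgnl1* of MTZ+ rapamycin at 4dpi, at 81.9 to 114 CPM, lies above MTZ+ DMSO.

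Among cadherins, *cdh6* fell and *cdh1* rose at both times. *cdh6* had 138, 119 and 205 CPM in MTZ+ DMSO at 2dpi, against 445, 381 and 493 CPM in MTZ- DMSO, and 148, 123 and 101 CPM against 288, 495 and 379 CPM at 4dpi. The log2 fold changes were -1.49 ± 0.26 (edgeR, adjusted p = 0.00109) at 2dpi and -1.58 ± 0.33 (adjusted p = 0.00545) at 4dpi. *cdh1* (chromosome 7, 53059299 to 53117237) had 164, 65.8 and 112 CPM in MTZ+ DMSO at 2dpi, against 3.49, 5.59 and 3.17 CPM in MTZ- DMSO. At 4dpi it had 81.1, 91.3 and 107 CPM in MTZ+ DMSO, against 6.66, 1.00 and 2.65 CPM in MTZ- DMSO. Unablated RPE thus held little *cdh1* message in any library, and it rose by 4.81 ± 0.93 at 2dpi (edgeR, adjusted p = 0.00330) and by 4.83 ± 0.92 at 4dpi (adjusted p = 0.00324). Both *cdh1* calls and both *cdh6* calls were kept in every alternative fit.

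Since *cdh1* is also an epidermal gene, markers of skin were read beside it. The summed level of 9 epidermal markers at 2dpi was 15.8 to 23.1 CPM in MTZ+ DMSO and 6.63 to 23.4 CPM in MTZ- DMSO. At 4dpi the sum was 79.9 to 219 CPM in MTZ+ DMSO and 9.30 to 71.8 CPM in MTZ- DMSO. Its rise lay mostly in *icn* (means of 106 CPM in MTZ+ DMSO and 7.27 CPM in MTZ- DMSO) and *krt4* (33.7 and 6.93 CPM). Others were lower, such as *cyt1* (1.06 and 13.3 CPM) and *tp63* (1.61 and 3.18 CPM). Of the 7 markers tested, 1 was called higher and 0 lower, and the median log2 fold change was -0.91. The part of skin cells in the *cdh1* differences was not tested.

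*cdh2* changed less. It had 247, 202 and 258 CPM in MTZ+ DMSO at 2dpi, against 145, 179 and 141 CPM in MTZ- DMSO (log2 fold change 0.62 ± 0.26, edgeR, adjusted p = 0.102), and 175, 294 and 217 CPM against 130, 137 and 158 CPM at 4dpi (0.76 ± 0.22, adjusted p = 0.0248). Its ablated libraries were all above the unablated ones, but the fold was under the limit.

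Scarcer cadherins of the nervous system and mesenchyme, *cdh11* (OB-cadherin) and *cdh4* (R-cadherin), were called higher at 4dpi only. *cdh11* had 6.93, 23.5 and 16.7 CPM in MTZ+ DMSO, against 0.455, 0.0358 and 1.16 CPM in MTZ- DMSO (log2 fold change 4.89 ± 1.18, edgeR, adjusted p = 0.0104). *cdh4* had 5.68, 2.17 and 6.53 CPM in MTZ+ DMSO, against 0.124, 0 and 0.871 CPM in MTZ- DMSO (3.90 ± 1.20, adjusted p = 0.0309), a call lost without MTZ- DMSO replicate 1 or MTZ+ DMSO replicate 1 or 3 (adjusted p 0.0649 to 0.0949) and on the 2 compared groups alone (0.0645). At 2dpi *cdh11* averaged 9.30 CPM in MTZ+ DMSO and 3.48 CPM in MTZ- DMSO (1.45 ± 0.68, edgeR, adjusted p = 0.143). There *cdh4* averaged 1.46 and 0.273 CPM, higher without overlap (2.42 ± 1.07, adjusted p = 0.124). In MTZ- DMSO, *cdh11* was lower without overlap at 4dpi (mean 0.551 CPM) than at 2dpi. Markers of inner retinal neurons (8 genes) summed to 170 to 356 CPM in MTZ+ DMSO at 4dpi and to 32.5 to 52.9 CPM in MTZ- DMSO, and 7 markers of mesenchyme summed to 12.1 to 16.4 CPM in MTZ+ DMSO and to 0.0358 to 7.91 CPM in MTZ- DMSO. The part of such cells in the rise of *cdh11* and *cdh4* was not tested.

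Claudins changed in both directions. *cldn7b* (chromosome 10, 22144768 to 22150419), a claudin of simple epithelia and skin, had 5.75, 11.5 and 3.79 CPM in MTZ+ DMSO at 2dpi and no count in any MTZ- DMSO library. Against a floor of 3 counts per library this is at least 78.3-fold higher (edgeR, adjusted p = 0.00166). At 4dpi it had 11.6, 20.5 and 60.7 CPM in MTZ+ DMSO, against 0.621, 0.822 and 0 CPM in MTZ- DMSO (log2 fold change 6.06 ± 1.03, adjusted p = 0.00185). *cldn7a* had 15.2, 2.58 and 0.346 CPM in MTZ+ DMSO at 4dpi and no count in MTZ- DMSO, at least 53.2-fold higher in the mean (edgeR, adjusted p = 0.0221). Its ablated libraries differed widely, and the call was lost without any MTZ- DMSO library or without MTZ+ DMSO replicate 1 (adjusted p 0.0534 to 0.0576). The epidermal marker sum at 4dpi, at 79.9 to 219 CPM in MTZ+ DMSO and 9.30 to 71.8 CPM in MTZ- DMSO, was higher mostly through *icn* and *krt4*. The median log2 fold change of the 7 epidermal markers tested was -0.91, and the part of skin cells in the values of both claudins was not tested.

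*cldn12*, a widely expressed claudin, had the smallest adjusted p of any member at 4dpi, with 82.9, 111 and 114 CPM in MTZ+ DMSO against 46.4, 38.4 and 42.8 CPM in MTZ- DMSO. It rose by 1.34 ± 0.18 (edgeR, adjusted p = 0.000597). At 2dpi it had 74.6, 84.7 and 79.3 CPM in MTZ+ DMSO against 50.0, 35.0 and 37.1 CPM in MTZ- DMSO, and its change of 0.98 ± 0.20 (adjusted p = 0.00336) was just under the fold limit.

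*cldnk* had 91.5, 59.1 and 6.84 CPM in MTZ+ DMSO at 4dpi and no count in MTZ- DMSO, at least 463-fold higher (edgeR, adjusted p = 0.00730). At 2dpi it was found in 2 of 3 libraries of either group, with 157, 5.66 and 0 CPM in MTZ+ DMSO against 29.6, 0 and 10.0 CPM in MTZ- DMSO. The same inner retinal markers stand beside this rise as beside *cdh11*. Of 4 Müller glia markers, 3 were called higher in MTZ+ DMSO at each time point, with a median log2 fold change of 2.28 at 2dpi and 4.07 at 4dpi. The other, *glula*, averaged 5350 CPM in MTZ+ DMSO and 7161 CPM in MTZ- DMSO at 2dpi, and 8580 and 10875 CPM at 4dpi. It made up most of their sum, which was not higher after ablation. That sum was 4898 to 6795 CPM in MTZ+ DMSO and 5393 to 10406 CPM in MTZ- DMSO at 2dpi, and 7754 to 10800 against 9655 to 12310 CPM at 4dpi. The part of either cell type was not tested. *cldni* had 15.7, 8.25 and 20.5 CPM in MTZ+ DMSO at 2dpi, against 1.60, 3.69 and 0.552 CPM in MTZ- DMSO (log2 fold change 2.92 ± 0.88, adjusted p = 0.0305), and the call was lost without MTZ- DMSO replicate 1 or 3 or MTZ+ DMSO replicate 1 or 3 (adjusted p 0.0646 to 0.105). It overlaps the leukocyte gene *coro1a* on the other strand, whose mean was 11.7 CPM in MTZ+ DMSO and 4.11 CPM in MTZ- DMSO, and the handling of strand in the counting is not given in the sources used here.

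The claudins that fell were scarce. *cldna* had 8.32, 1.49 and 3.79 CPM in MTZ- DMSO at 2dpi and a single read in all 3 MTZ+ DMSO libraries, a ratio of 367-fold lower in MTZ+ DMSO with a 95% counting interval of 65.6 to 14541 (exact binomial, counting error only). Its 3 nearest neighbors on chromosome 15, *cldnj*, *cldne* and *cldnf* (2631421 to 2652640), averaged 0.0539, 0.333 and 0.108 TPM over all libraries. *cldne* was not called in this comparison, and *cldnj* and *cldnf* had too few reads to be tested. *cldn17* had 0.0373, 0 and 0.159 CPM in MTZ+ DMSO at 2dpi, against 0.989, 2.77 and 1.93 CPM in MTZ- DMSO (log2 fold change -4.78 ± 1.40, edgeR, adjusted p = 0.0245), and leaving out MTZ- DMSO replicate 2 or 3 or MTZ+ DMSO replicate 1 or 2 gave adjusted p values of 0.0548 to 0.0776. The most abundant claudins, *cldn2* and *cldn5a*, were not called at either time point. *cldn2* had 386, 241 and 325 CPM in MTZ+ DMSO at 2dpi against 440, 312 and 511 CPM in MTZ- DMSO, and 396, 209 and 196 CPM against 585, 484 and 407 CPM at 4dpi (-0.81 ± 0.35, adjusted p = 0.0986). Without MTZ+ DMSO replicate 1 at 4dpi, *cldn2* was called, at -1.22 (adjusted p = 0.0253).

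**Figure D4:**
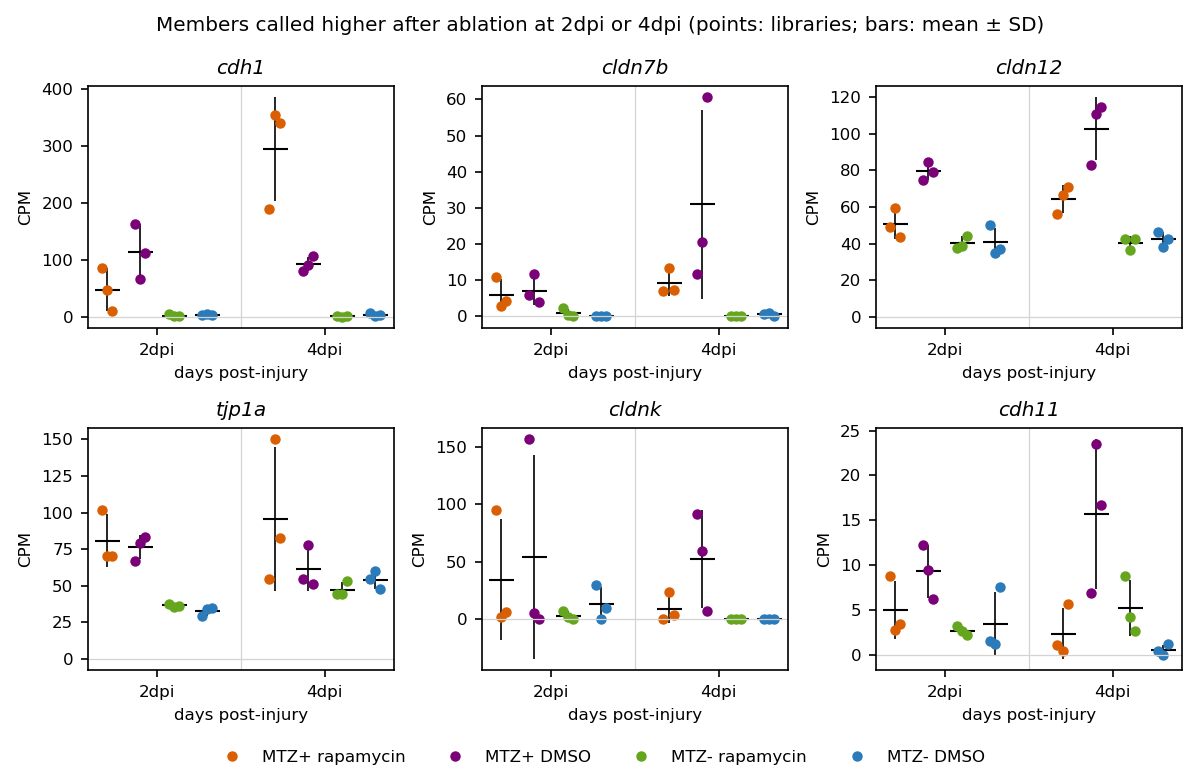
CPM of 6 members called higher after ablation at 2dpi or 4dpi, with a point for each library and a bar for the mean ± SD of the 3 libraries of a group, ordered MTZ+ rapamycin, MTZ+ DMSO, MTZ- rapamycin and MTZ- DMSO within each time point. *cdh1* reaches 190 to 355 CPM in MTZ+ rapamycin at 4dpi against 81.1 to 107 CPM in MTZ+ DMSO, and *cldnk* varies widely between the libraries of a group.

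In unablated DMSO larvae, 2 of 77 tested members were called between 9dpf and 7dpf, *mpp5a* and *cgna*, where 7% of all genes were called. *mpp5a* had 51.1, 36.0 and 29.8 CPM at 9dpf, against 13.6, 12.7 and 16.5 CPM at 7dpf, and rose by 1.47 ± 0.32 (edgeR's quasi-likelihood test, adjusted p = 0.00541). *cgna* had 63.3, 43.5 and 45.8 CPM at 9dpf, against 21.6, 15.8 and 19.9 CPM at 7dpf, and rose by 1.43 ± 0.36 (adjusted p = 0.0145), a call lost without MTZ- DMSO replicate 2 at 7dpf or replicate 1 at 9dpf (adjusted p 0.0800 and 0.0779). *jam2a*, at 276 to 435 CPM against 82.5 to 138 CPM, did not overlap either but was not called (1.74 ± 0.67, adjusted p = 0.109) unless only these 2 groups were fitted (1.71, adjusted p = 0.00594) or DESeq2 was used (adjusted p = 0.0330). The libraries of the 2 ages carry different dates in their names, and date and age cannot be told apart.

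To determine whether mTOR inhibition changed junction genes in ablated RPE, MTZ+ rapamycin was compared with MTZ+ DMSO. The MTZ+ DMSO libraries serve in both this and the ablation comparison, so that opposite changes of a gene in them are not independent. At 2dpi edgeR called 0 of 68 members (9 at an unadjusted p under 0.05), beside 0.53% of all genes (13.5% at an unadjusted p under 0.05). DESeq2, whose share of all genes is not given here, called 2, *cldn1* and *pard6gb*. *cldn1* had 1.25, 5.14 and 2.40 CPM in MTZ+ rapamycin and no count in MTZ+ DMSO, at least 26.6-fold higher (edgeR, adjusted p = 0.134, DESeq2, adjusted p = 0.00241). The epidermal marker sum of these libraries was 94.8 to 432 CPM in MTZ+ rapamycin, against 15.8 to 23.1 CPM in MTZ+ DMSO, and its part in the *cldn1* values was not tested. The RPE marker sum was 38959 to 67522 CPM in MTZ+ rapamycin and 15974 to 31565 CPM in MTZ+ DMSO, and that of Müller glia 1713 to 2620 and 4898 to 6795 CPM. Their part in the differences with rapamycin at 2dpi was not tested. *pard6gb*, a Par-6 gene, had 13.4, 17.7 and 10.7 CPM in MTZ+ rapamycin against 31.3, 23.7 and 27.2 CPM in MTZ+ DMSO, without overlap (-0.98 ± 0.25, edgeR, adjusted p = 0.103, DESeq2, adjusted p = 0.00784).

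At 4dpi, 2 of 68 members were called, beside 2.64% of all genes, and both are scaffold genes. *tjp2b* (ZO-2, chromosome 8, 11425048 to 11542289) had 26.6, 16.1 and 20.2 CPM in MTZ+ rapamycin, against 80.0, 47.6 and 44.1 CPM in MTZ+ DMSO, and fell by 1.49 ± 0.28 (edgeR, adjusted p = 0.0196). *cgnl1* had 112, 114 and 81.9 CPM in MTZ+ rapamycin, against 42.0, 41.0 and 60.1 CPM in MTZ+ DMSO, and rose by 1.07 ± 0.23 (adjusted p = 0.0310). Neither pair of groups overlapped. The *cgnl1* level of MTZ+ rapamycin libraries lay within that of unablated larvae, which was 101 to 131 CPM in MTZ- DMSO, for 2 of 3 libraries. In MTZ- rapamycin it averaged 101 ± 26.6 CPM (SD). The RPE marker sum at 4dpi was 18870 to 83303 CPM in MTZ+ rapamycin and 24809 to 45818 CPM in MTZ+ DMSO. Its part in these differences was not tested. The call for *tjp2b* was lost without MTZ+ DMSO replicate 1 or MTZ+ rapamycin replicate 2 or 3 (adjusted p 0.0518 to 0.0745), and that for *cgnl1* without MTZ+ DMSO replicate 1 or 2 or MTZ+ rapamycin replicate 1 or 2 (log2 fold change 0.97 to 1.00, adjusted p 0.0496 to 0.112). When only the 2 compared groups were fitted, neither was called (adjusted p = 0.0712 for *tjp2b* and 0.0880 for *cgnl1*), nor without both MTZ+ libraries numbered 2 (0.103 and 0.210).

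E-cadherin was not called for rapamycin in MTZ+ larvae at either time point in the fits of 12 libraries. At 4dpi *cdh1* had 190, 355 and 341 CPM in MTZ+ rapamycin, against 81.1, 91.3 and 107 CPM in MTZ+ DMSO, with no overlap. The log2 fold change was 1.63 ± 0.79 (edgeR, adjusted p = 0.293), and it was called only when the 2 groups were fitted alone (1.60, adjusted p = 0.0432). At 2dpi the values were 85.7, 46.6 and 10.3 CPM in MTZ+ rapamycin against 164, 65.8 and 112 CPM in MTZ+ DMSO, which overlapped. The summed cadherin TPM at 4dpi was 255 to 340 in MTZ+ rapamycin, against 162 to 230 in MTZ+ DMSO. The epidermal marker sum at 4dpi was 24.5 to 69.6 CPM in MTZ+ rapamycin and 79.9 to 219 CPM in MTZ+ DMSO. Of the 7 epidermal markers tested, 0 were called, and their median log2 fold change was 0.10. The part of skin cells in the *cdh1* values was not tested.

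*cldn12*, raised by ablation, was lower with rapamycin at both times, at 49.1, 59.5 and 43.6 CPM in MTZ+ rapamycin against 74.6, 84.7 and 79.3 CPM in MTZ+ DMSO at 2dpi, and 55.9, 66.4 and 70.9 CPM against 82.9, 111 and 114 CPM at 4dpi. The groups did not overlap, but the changes of -0.65 ± 0.20 (edgeR, adjusted p = 0.168) and -0.71 ± 0.18 (adjusted p = 0.0491) were under the fold limit. The scarce cadherins *cdh4*, *cdh7a* and *cdh11* were at 0.427 to 0.499, 0.0332 to 0.427 and 0.392 to 5.63 CPM in MTZ+ rapamycin at 4dpi, against 2.17 to 6.53, 1.21 to 4.84 and 6.93 to 23.5 CPM in MTZ+ DMSO. Only DESeq2 called these 3 and *pard3ba_1* (adjusted p 0.00727 to 0.0437), and *tjp2b* and *cgnl1* completed its 6 calls. The share of all genes that DESeq2 called is not given here. Marker sums moved beside them. That of inner retinal neurons was 16.9 to 78.4 CPM in MTZ+ rapamycin and 170 to 356 CPM in MTZ+ DMSO, and that of Müller glia 462 to 2044 CPM and 7754 to 10800 CPM. The latter was mostly *glula* (means of 1317 and 8580 CPM), which was also high in MTZ- DMSO at 4dpi (10875 CPM). Of the 4 Müller glia markers, 2 were called lower, with a median log2 fold change of -2.87. The part of either cell type was not tested. The most abundant members *cldn2*, *jam2a*, *cdh6*, *cldn5a* and *cdh2* had changes between -0.17 and 0.81 at 4dpi, none called.

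**Figure D5:**
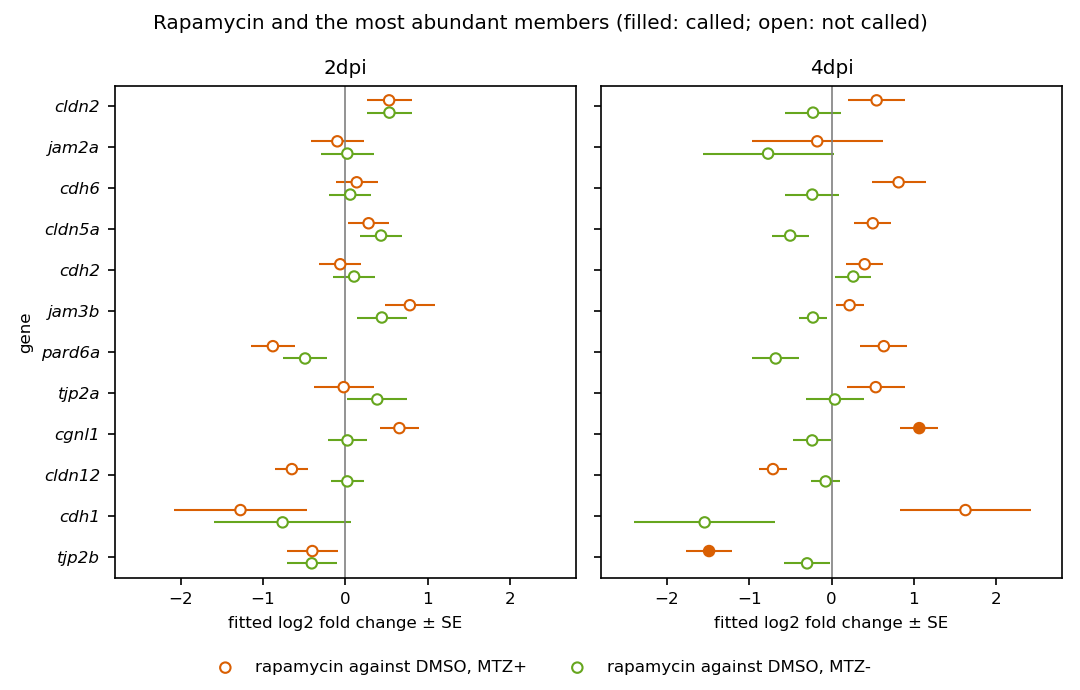
Fitted log2 fold change ± SE of rapamycin over DMSO at 2dpi (left) and 4dpi (right) in MTZ+ (orange) and MTZ- larvae (green), for the most abundant members and *tjp2b*. Filled points were called. Only *cgnl1* and *tjp2b* in MTZ+ larvae at 4dpi are filled, at 1.07 and -1.49.

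In unablated larvae, rapamycin called 0 of 68 members at 2dpi by edgeR (6 at an unadjusted p under 0.05), beside 0.0855% of all genes (7.54% unadjusted). DESeq2, whose share of all genes is not given here, called 4 (*cldn1*, *cldn7a*, *cldni* and *cgnb*). At 4dpi edgeR called 1, beside 2.1% of all genes. This was *cldni*, at 0, 0.811 and 0.376 CPM in MTZ- rapamycin against 5.63, 5.36 and 19.5 CPM in MTZ- DMSO (log2 fold change -4.71 ± 1.1, adjusted p = 0.0463). The groups did not overlap, but the call was lost without any 1 of the 6 libraries (adjusted p 0.0533 to 0.140) and when replicate number entered as a block (0.0658). Epidermal markers were 1.13 to 2.87 CPM in MTZ- rapamycin and 9.30 to 71.8 CPM in MTZ- DMSO, and their part was not tested. The gene *coro1a*, which overlaps *cldni*, averaged 2.13 CPM in MTZ- rapamycin and 1.44 CPM in MTZ- DMSO. *cdh1* was low in both groups, at 2.00, 0 and 1.47 CPM in MTZ- rapamycin and 6.66, 1.00 and 2.65 CPM in MTZ- DMSO, and was not called.

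Whether rapamycin acted differently in ablated and unablated larvae was tested as the effect in MTZ+ minus that in MTZ-. EdgeR called 0 members at 2dpi (5 at an unadjusted p under 0.05) and 0 at 4dpi (18 at an unadjusted p under 0.05). Of all genes, edgeR called 0.0228% and 3.32% (7.64% and 19.2% unadjusted). DESeq2 called 1 and 8 members, and its share of all genes is not given here. At 4dpi the difference for *cgnl1* was 1.30 ± 0.32 (edgeR, adjusted p = 0.0518, DESeq2, adjusted p = 0.00667). For *cdh11* it was -6.01 ± 1.53 (0.0571 and 0.000602) and for *pard3ba_1* -4.59 ± 1.18 (0.0593 and 0.000890). Both were higher with rapamycin in MTZ- larvae (3.25 ± 1.11 and 2.30 ± 0.84, edgeR, adjusted p = 0.153 and 0.176), where only DESeq2 called them (0.0195 and 0.0406). DESeq2 also called the difference for *cdh4*, *cdh7a*, *cldn7a*, *mpp5b* and *pard6a*. For *pard6a* it was 1.31 ± 0.40 (edgeR, adjusted p = 0.0993), for *tjp2b* -1.19 ± 0.39 (0.123) and for *cdh1* 3.17 ± 1.17 (0.163).

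Junction partners outside the name rule, the catenins, nectins, desmosomal, Scribble-module and related genes, were read from a list of 77 symbols, of which 60 are in the tables. After ablation, 8 of 58 tested partners rose and 6 fell at 2dpi, where 11.3% of all genes were called higher and 9.9% lower, and 12 of 57 rose and 7 fell at 4dpi, where 14.3% and 9.14% of all genes did. The median log2 fold changes were 0.38 at 2dpi (0.34 with genes of an empty group at their bound) and 0.51 at 4dpi, beside 0.04 and 0.27 over all genes. *epcam*, an epithelial adhesion molecule that binds claudin-7 in mammals, had 95.1, 53.5 and 102 CPM in MTZ+ DMSO at 2dpi, against 0.0582, 0.470 and 0 CPM in MTZ- DMSO (8.77 ± 1.57, edgeR, adjusted p = 0.00234). It rose at 4dpi as well (4.62 ± 1.26, adjusted p = 0.0183), as did the basolateral polarity gene *llgl1* (2.94 ± 0.68 at 2dpi and 4.61 ± 0.75 at 4dpi), *perp* of the desmosome (1.52 ± 0.28 and 1.86 ± 0.35) and *lin7a* (2.30 ± 0.76 and 3.93 ± 0.64). *nectin4a* had 2 reads in all MTZ- DMSO libraries at 2dpi and 1 at 4dpi, and was 142-fold higher in MTZ+ DMSO at 2dpi (95% counting interval 39.0 to 1183) and 386-fold higher at 4dpi (68.9 to 15289). The call of *lin7a* at 2dpi was kept in 2 of 6 fits short of a library, and those of *epcam* and *nectin4a* at 4dpi were lost without MTZ+ DMSO replicate 3 (adjusted p = 0.0533) and replicate 2 (where its level fell short of the TPM limit). *epb41l4a* (-2.05 ± 0.28 and -2.58 ± 0.43), *nectin3b* (-1.47 ± 0.30 and -1.86 ± 0.37) and the neural α-catenin *ctnna2* (-2.10 ± 0.37 and -2.24 ± 0.64) fell at both time points, the last of these at 4dpi in 2 of 6 fits short of a library. Further calls at 2dpi were *ctnnd1* (p120-catenin, 1.08 ± 0.20), *ctnnb2* (β-catenin, 1.20 ± 0.23) and *amotl2b* (1.46 ± 0.28) higher and *afdna* (afadin, -1.23 ± 0.26), *plekha7b* (-1.59 ± 0.32) and *nhsl1b* (-1.82 ± 0.50) lower. That of *nhsl1b* was lost without any of 3 libraries (MTZ- DMSO replicates 1 and 2 and MTZ+ DMSO replicate 1, adjusted p 0.0504 to 0.0578), and *ctnnd1* was at 0.95 without MTZ+ DMSO replicate 3. The change of the ablation effect from 2dpi to 4dpi was called for 1 of 59 partners, *amotl2b*, beside 2.63% of all genes. It was -1.99 ± 0.41 (edgeR, adjusted p = 0.0155) and was called in all 12 fits short of a library.

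At 4dpi further partners called were, among others, *ezrb* (an ezrin gene, 1.82 ± 0.30), *esamb* (1 read in all MTZ- DMSO libraries, 234-fold higher in MTZ+ DMSO, 95% counting interval 41.7 to 9289) and *ctnnd2b* (1.89 ± 0.49, lost without MTZ- DMSO replicate 1 or 2) higher and *ctnnd2a* (-1.61 ± 0.32) lower. With rapamycin at 4dpi, 2 of 57 tested partners were called in MTZ+ larvae, both lower, beside 2.64% of all genes. They were *lin7a* (-3.51 ± 0.62, edgeR, adjusted p = 0.0151) and *esama*, which had no count in MTZ+ rapamycin and was at least 26.8-fold lower (adjusted p = 0.00674). *lin7a* rose with rapamycin in MTZ- larvae (2.61 ± 0.60, adjusted p = 0.0446), as the only one of 57 partners called there, beside 2.1% of all genes. Its 2 effects differed by -6.11 ± 0.87 (adjusted p = 0.00766). The *lin7a* call in MTZ- larvae was kept in 1 of 6 fits short of a library, and its call for the difference in all 12. The difference was called for 1 partner higher and 3 lower of 57 tested, beside 3.32% of all genes. The others were *esama* (lower, edgeR, adjusted p = 0.0157, kept in all 12 such fits), *llgl1* (-4.26 ± 0.96, adjusted p = 0.0357, kept in 3) and *cxadr* (1.18 ± 0.28, adjusted p = 0.0461, kept in 2). Without both MTZ+ libraries numbered 2, *lin7a* was not called in MTZ+ larvae (adjusted p = 0.0863), and *esama* was not on the 2 compared groups alone (0.0647). The medians of 2 neural marker lists moved in the same directions as *lin7a* at 4dpi, though not every marker did. The median log2 fold change of 8 inner retinal neuron markers was 2.60 after ablation (6 called higher), -2.65 with rapamycin in MTZ+ larvae (2 called lower), 3.07 in MTZ- larvae and -5.26 for the difference of both effects (4 called lower). That of 8 photoreceptor markers was 2.08 (2 called higher), -1.64 (0 called), 3.81 (2 called higher) and -5.60 (3 called lower). After ablation at 4dpi, *opn1mw1* was lower, at means of 4.37 CPM in MTZ+ DMSO and 36.9 CPM in MTZ- DMSO. So was *opn1mw2*, at 2.28 and 21.5 CPM, while the other photoreceptor markers had higher means in MTZ+ DMSO. After ablation at 2dpi, where *lin7a* was called higher as well, the medians of both lists did not rise with it. The medians there were -0.08 for inner retinal neurons (0 called) and -1.67 for photoreceptors (1 called lower). The part of such cells in the *lin7a* values was not tested.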

How the data were processed

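RNA of sorted eGFP+ RPE cells was sequenced in 24 libraries, 8 groups of 3, assigned by the sample labels. Reads were trimmed and mapped by the authors with CLC Genomics Workbench (genome build GRCz11), and the deposited count per gene and library is not normalized. They also deposited TPM values (counts divided by gene length and scaled to the same sum in each library). Deposited fold changes and p-values between groups were not used here. How multi-mapped reads and strand were counted is not given in the sources used here. The 12 members that overlap another gene (6 of them on the same strand), and near-identical paralogs, are therefore uncertain. Of the members named, *cgna*, *cldn17* and *mpp5b* overlap a gene on the same strand, and *cldn2*, *cldn12*, *tjp1a* and *cldni* one on the other strand. *pard3ba* and *cdh23* each have 2 rows.

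Counts were filtered by filterByExpr (minimum count 10), scaled by TMM and tested with glmQLFit (robust) and glmQLFTest in edgeR 4.0.16 (R 4.3.3, limma 3.58.1), on the 12 libraries of a time point, or on all 24 for comparisons between time points. SE is the log2 fold change divided by the square root of F. Adjustment of p followed Benjamini and Hochberg, across every gene of a fit. Printed CPM use TMM factors over all 24 libraries (0.761 to 1.34). Total counts of 20607731 to 37189527 put a floor of 3 counts at 0.0754 to 0.134 CPM. Reads carry no molecular identifiers, so bounds and intervals cover counting error only. No exact test of 1 gene in 3 against 3 libraries can give p below 0.1, so single genes were tested only in fits across all genes. Libraries are separate pools of larvae, and the p-values weigh group differences against the spread between them. In fits without a block, this spread takes in any difference between dates.

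The pairing comes from the dates in the library names of the labels, which are shared by libraries with the same number at a time point. Their deviations from the group means correlated across genes by 0.121 (mean r) at 2dpi and 0.0361 at 4dpi, against -0.0607 and -0.0181 between different numbers. Fits with that number as a block, and with DESeq2 1.42.0, were alternatives. Shares of all genes called are those of the main edgeR fits and do not serve as a background for counts from DESeq2. The names of both MTZ+ libraries numbered 2 at 4dpi carry letters that do not match those of the other replicates, and fits without both were run. Named are the 12 members of highest mean TPM, up to 10 called members per comparison and direction, and examples of each family. Examples that are neither, such as *cldn1*, *cldn19* and *cdh7a*, were picked after their values were seen. Members, partner and marker lists were chosen with earlier results of these data known. Scripts were tested on simulated counts of the 2dpi libraries with known changes. Of genes changed by 1, 2 and 3 on the log2 scale, edgeR called 0 of 67, 1 of 67 and 22 of 66. DESeq2 called 3, 14 and 48 of them. The simulation gave every gene the same spread and left most of the 14082 genes tested unchanged. A change of 1 sat at the fold limit. These shares need not hold for members with less spread, such as *tjp1a*, which was called at 1.24 ± 0.20 at 2dpi. A member that was not called is still not shown to be unchanged. No sample column was left unmapped (0 columns).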

Additional observations from a re-analysis of the deposited data

How the results depend on the processing

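Of 36 calls of single members, 20 were kept in every alternative fit, 447 values under alternatives kept their direction, and 70 of them lost the call. The counts after ablation ran from 10 to 15 at 2dpi and from 12 to 15 at 4dpi when a library was left out, and were 16 and 19 with DESeq2, 15 and 16 with the replicate block, and 13 at 4dpi without both MTZ+ libraries numbered 2. DESeq2 called 2 members for rapamycin in MTZ+ larvae at 2dpi and 6 at 4dpi, 4 and 5 in MTZ- larvae, 1 and 8 for the difference of both effects, 6 for MTZ- DMSO at 9dpf against 7dpf and 3 for the change of the ablation effect between time points. The shares of all genes called in the alternative fits are not given here. For rapamycin in MTZ- larvae at 4dpi, the count was 0 with the replicate block, 0 without the filter on low counts and 0 on the compared groups alone. On the compared groups alone it was 1 for rapamycin in MTZ+ larvae at 4dpi and 0 for MTZ+ DMSO at 4dpi against 2dpi. By adjusted p alone, 4 members were called for MTZ- DMSO at 9dpf against 7dpf. The change of the ablation effect had 1 call with the replicate block and 2 without both MTZ+ libraries numbered 2, a setting that left 0 calls for rapamycin in MTZ+ larvae at 4dpi. The replicate block changed no other count of members by over 1.5 times. It added *f11r.1* to the 4dpi ablation calls. No block was fitted between time points within a treatment, since no library of 2dpi shares a date with one of 4dpi. Without 1 library at a time, the counts were 0 to 0 at 2dpi and 0 to 2 at 4dpi for rapamycin in MTZ+ larvae, 0 to 0 at both times in MTZ- larvae, 0 to 0 and 0 to 2 for the difference of both effects, 1 to 3 for MTZ- DMSO at 9dpf against 7dpf, 0 to 1 for MTZ+ DMSO at 4dpi against 2dpi and 0 to 0 for the change of the ablation effect. The causes were not tested. Members with few reads, such as *cldna*, *cldn17* and *cldn7a*, rest on a depth at which a floor of 3 counts is 0.0754 to 0.134 CPM, and of 97 members, 68 had enough reads to be tested at each time point.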
